A study of Mus musculus with 8 samples.

Results

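The kallikreins expressed in the mouse kidney were followed as a family of 10 genes: Klk1, Klk1b3, Klk1b4, Klk1b5, Klk1b11, Klk1b21, Klk1b22, Klk1b24, Klk1b26 and Klk1b27. The members were found by the RefSeq accession of each probe. Of the 10 genes, 8 had at least 1 probe, 9 probes in all, and all 8 passed the filter on dim probes and were among the 20580 genes tested. No probe carried an accession of Klk1b5 or Klk1b22, and neither was analysed here. The members were selected on measured values of these same arrays, namely their levels and differences across the 4 groups, so their values are given as a description, with standard errors and array values and without a test.

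The study compared wild-type (WT) mice with mice in which Keap1 was knocked down (KD). KEAP1 marks the transcription factor NRF2 for degradation, so less KEAP1 leaves more NRF2. In 1 group of each genotype the kidney was uninjured (normal), and in the other the artery and vein of the left kidney had been closed for 45 minutes and the organ was taken at day 1 (ischemia-reperfusion injury, IRI), with the right kidney not clamped. All mice were males of 16 weeks and every sample was a whole left kidney, with 2 arrays in each of the 4 groups. The labels name the knockdown without saying how it was made or in which cells, and do not say whether the arrays of a group came from separate mice; the spread between them may therefore be technical.

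On the 8 one-colour arrays 62.1% to 67.8% of spots were well above background, and the arrays of a group correlated at 0.989 to 0.994 over all genes tested. Brightness differed with injury. The 75th percentile of signal, by which levels are divided below, was 1040 to 1138 on normal arrays and 1270 to 1340 on IRI arrays. Keap1 was lower by design: its log2 difference was -1.25 in normal kidneys (SE 0.12, limma adjusted p = 0.00400) and -1.39 in injured kidneys (SE 0.12, adjusted p = 0.00546). Nqo1, a textbook NRF2 target, was higher by 1.34 and 2.05 in the same comparisons (SE 0.12 for both, adjusted p = 0.00352 and 0.00125). In every array the kidney segments were represented by their markers, and the level of a gene in such whole-organ RNA does not tell fewer cells of a type from less RNA per cell.

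Tissue kallikreins are secreted serine proteases. In the kidney they are made mainly by the connecting tubule and released into the urine, where KLK1 cuts kininogen to free kinins, short peptides that widen vessels and promote salt excretion until peptidases break them down. The mouse carries many close copies of Klk1, the Klk1b genes, several of which are best known from the salivary gland, where products of the family process growth factors such as EGF. All members here lie in a single cluster on chromosome 7, and their transcripts are so alike that a probe for one may take up signal from another; the share of such signal was not tested.

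Because the family arose by gene copying, its upstream sequences can be compared directly with its responses. RefSeq upstream sequence (build GRCm38.p6) was matched for all 10 members. The last 120 bases before the annotated start are shown for the 8 measured genes, all on the plus strand, 5′ to 3′. Capitals mark 2 short motifs. The first is TTTAAA, which resembles the box that fixes where transcription starts. The second is the core of the site that NRF2 binds, with the letters TGACNNNGC, and the copies shown read on the opposite strand. The genes whose levels were lower in WT IRI than in WT normal kidneys are given as the first set:
Klk1, chr7:44225240-44225359: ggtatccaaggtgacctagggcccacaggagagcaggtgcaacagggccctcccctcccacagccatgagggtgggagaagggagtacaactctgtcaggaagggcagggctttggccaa
Klk1b3, chr7:44198071-44198190: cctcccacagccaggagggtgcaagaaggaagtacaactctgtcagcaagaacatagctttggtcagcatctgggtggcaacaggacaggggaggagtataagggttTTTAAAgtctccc
Klk1b4, chr7:44207313-44207432: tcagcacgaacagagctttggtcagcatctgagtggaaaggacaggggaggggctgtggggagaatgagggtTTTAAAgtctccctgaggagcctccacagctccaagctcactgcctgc
Klk1b21, chr7:44102172-44102291: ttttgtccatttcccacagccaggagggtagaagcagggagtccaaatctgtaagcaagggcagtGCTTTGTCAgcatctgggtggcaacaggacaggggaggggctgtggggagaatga

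The second set holds the genes whose levels were higher in WT IRI than in WT normal kidneys:
Klk1b11, chr7:43995757-43995876: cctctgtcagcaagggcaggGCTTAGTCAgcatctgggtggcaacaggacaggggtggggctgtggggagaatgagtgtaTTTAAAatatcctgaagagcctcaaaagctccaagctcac
Klk1b24, chr7:44188116-44188235: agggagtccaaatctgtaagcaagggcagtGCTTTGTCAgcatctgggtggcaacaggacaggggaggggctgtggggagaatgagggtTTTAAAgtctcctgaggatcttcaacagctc
Klk1b26, chr7:44012558-44012677: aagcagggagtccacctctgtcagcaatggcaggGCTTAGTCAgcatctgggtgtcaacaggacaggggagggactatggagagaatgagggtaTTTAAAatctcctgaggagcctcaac
Klk1b27, chr7:44052170-44052289: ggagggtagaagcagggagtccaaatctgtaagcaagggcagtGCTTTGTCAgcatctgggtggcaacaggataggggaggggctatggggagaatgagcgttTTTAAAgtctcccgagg

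In the full 250 bases before the start, TTTAAA occurred in 8 of the 10 members, against 12.1% of the 32851 RefSeq promoters searched over the same length. The windows of Klk1 and Klk1b21 did not hold it, but the annotated starts do not align between genes. The motif began at base -48 in Klk1b4 and at -13 in Klk1b3. The Klk1b21 window ends where the closely alike Klk1b24 sequence goes on for a few bases to TTTAAA. Bases past the annotated start were not searched, so the motif may lie beyond the window. The core TGACNNNGC occurred in 6 of 10 members (10.2% of all promoters). Those were Klk1, Klk1b11, Klk1b21, Klk1b24, Klk1b26 and Klk1b27, and not Klk1b3, Klk1b4, Klk1b5 or Klk1b22. In Klk1b11 it began at base -100, in Klk1b24 at -90, in Klk1b26 at -86, in Klk1b27 at -77 and in Klk1b21 at -55, each directly before the bases gcatctggg. Klk1 held its match farther up, at base -206, and Klk1b21 held another at -247. Both of these overlapped a match to TGACCT, a nuclear receptor half-site. TGACCT was searched after the sequences had been seen and occurred in 8 of 10 members (14.0% of all promoters). The AP-1 element TGANTCA and the palindromic element shared by the androgen and glucocorticoid receptors were in none of the 10 windows (6.75% and 0.00913% of all promoters). Both strands were searched for every motif, and a match is a description of letters, not of binding.

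Upstream identity and direction of the probe signals with injury did not go together for every pair. Over the 45 pairs of members, identity of the aligned upstream bases ran from 76.9% to 97.7%, with a median of 84.2%. The closest pair was Klk1b21 and Klk1b24, with 210 identical of 215 aligned bases, yet these genes stand in different sets above. The next, Klk1b21 and Klk1b27, shared 94.6% and also stand in different sets. Klk1b24 and Klk1b27 shared 91.9% and Klk1b11 and Klk1b26 shared 91.1%, and both of these pairs stand together in the second set. Klk1b3 and Klk1b4 shared 90.2%, and both stand in the first. The sets rest on probe signals. The ratio of the Klk1b21 to the Klk1 signal varied only 1.14-fold over the arrays. The Klk1b21 probe may therefore report partly Klk1 transcripts, which was not tested. The WT injury differences of Klk1, Klk1b3 and Klk1b4 also came close to 0 under other scalings, as given below.

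Levels are given as log2 of the processed signal over the 75th percentile of signals on the same array, so that 0 is a signal at that percentile and 1 unit is a doubling. Levels of different probes are not comparable. Replicate 1 of every group was on 1 slide and replicate 2 on another, and values are given in that order.

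Klk1, the main kininogenase of the kidney, had levels of 6.85 and 6.78 (WT normal), 6.11 and 6.40 (KD normal), 6.31 and 6.32 (WT IRI) and 5.86 and 5.99 (KD IRI). WT normal kidneys were highest and KD IRI kidneys lowest, with neither overlapping any other group, while the levels of the KD normal arrays lay on either side of the WT IRI arrays. The probe was among the brightest, with processed signals from 71721 to 128769, and no spot on any array was marked as saturated.

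Klk1b3, a close copy of Klk1, followed the same course. Its levels were 6.68 and 6.54 (WT normal), 5.90 and 6.29 (KD normal), 6.13 and 6.20 (WT IRI) and 5.73 and 5.98 (KD IRI). KD IRI and KD normal arrays overlapped, since the second KD IRI array was above the first KD normal array. A further, dimmer Klk1b3 probe gave log2 differences of -0.47 for WT IRI against WT normal and -0.56 for KD normal against WT normal (SE 0.11 for both), close to the -0.45 and -0.52 of the brighter probe (SE 0.14 for both).

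Klk1b4 had levels of 5.47 and 5.34 (WT normal), 4.71 and 5.17 (KD normal), 4.89 and 5.01 (WT IRI) and 4.53 and 4.64 (KD IRI). Klk1b21 had levels of 0.94 and 0.83, 0.11 and 0.52, 0.46 and 0.37, and -0.18 and -0.03 in the same order of groups. For both genes WT normal arrays were highest and KD IRI arrays lowest, without overlap with the other groups. In all 4 of these genes the first KD normal array was the lower of its pair, so that the distance from WT normal was greater on the first slide.

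Klk1b11 moved the other way with injury and had the widest range in the family. Its levels were -2.94 and -3.02 (WT normal), -3.95 and -4.01 (KD normal), -0.24 and -0.41 (WT IRI) and -1.50 and -1.11 (KD IRI). No groups overlapped: the order from lowest to highest was KD normal, WT normal, KD IRI and WT IRI. In processed signal the probe went from 141 and 145 in WT normal to 1008 and 1125 in WT IRI kidneys.

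Klk1b27 had levels of -1.95 and -1.99 (WT normal), -2.76 and -2.53 (KD normal), -0.01 and -0.10 (WT IRI) and -1.04 and -0.68 (KD IRI). The groups took the same order as for Klk1b11, again without overlap. Klk1b24 levels were -0.67 and -0.83, -1.82 and -1.51, 0.03 and -0.06, and -0.80 and -0.64 in the same order of groups. Here WT normal and KD IRI arrays overlapped, with KD normal below both and WT IRI above.

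Klk1b26 encodes a protease that cleaves the renin precursor in the submandibular gland, and was the dimmest member. Its levels were -3.62 and -3.63 (WT normal), -5.32 and -4.37 (KD normal), -2.91 and -3.11 (WT IRI) and -3.78 and -3.62 (KD IRI). WT IRI arrays were highest and KD normal arrays lowest, and WT normal and KD IRI arrays overlapped. On 1 of the 2 KD normal arrays the probe was not well above background, so differences from that group are the least precise in the family.

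**Figure D1:**
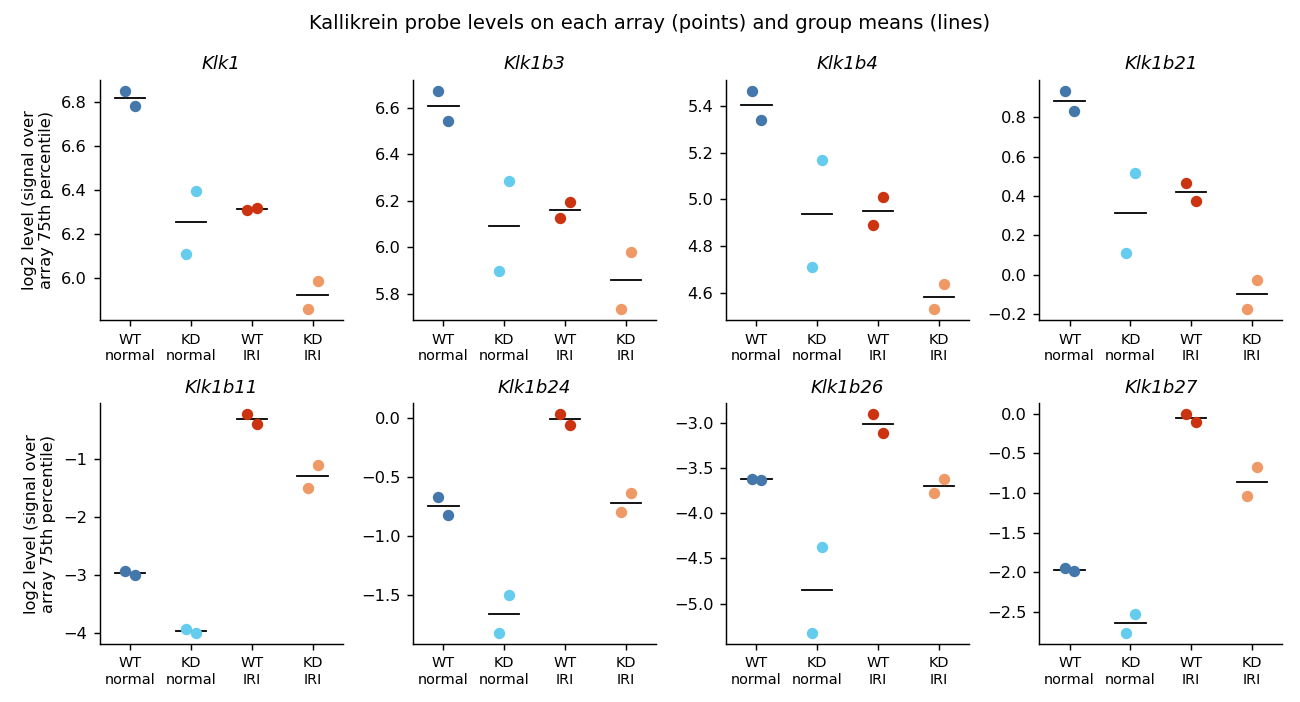
Level of each of the 8 measured members on every array (points) with group means (lines); the vertical axis, which differs between panels, is the level on the log2 scale, and the horizontal axis gives the 4 groups of 2 arrays. Klk1, Klk1b3, Klk1b4 and Klk1b21 are highest in WT normal kidneys, while Klk1b11, Klk1b24, Klk1b26 and Klk1b27 are highest in WT IRI kidneys; in every panel KD lies below WT of the same injury state.

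In uninjured kidneys, Keap1 knockdown went with lower levels of every measured kallikrein. The log2 difference of KD normal from WT normal was -0.57 for Klk1 (SE 0.10, 1.48-fold lower), -0.52 for Klk1b3, -0.47 for Klk1b4 and -0.57 for Klk1b21 (SE 0.14 to 0.15). Klk1b11 was 2.00-fold lower (log2 SE 0.15). The difference was -0.92 for Klk1b24 (SE 0.13, 1.89-fold lower), -0.68 for Klk1b27 (SE 0.15, 1.60-fold lower) and -1.22 for Klk1b26 (SE 0.30). The WT and KD arrays overlapped for none of the 8; over all genes, 34.5% had KD arrays wholly below WT arrays. By the threshold of an adjusted p of 0.05, 6 of the 8 lay among the genes called lower, against a background of 8.79%. That count was 0 without either WT normal array and 3 with no filter on dim probes, while all 8 stayed lower. Dropping the filter cannot change the differences themselves, only the calls. The median of the 8 differences was -0.62, and that of all genes -0.03. Since the members had been chosen with this contrast in view, these counts describe the choice.

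Within each slide the direction was the same, but the size was not. On the first slide Klk1 differed by -0.74 and on the second by -0.39. For Klk1b4 the values were -0.76 and -0.18, and for Klk1b3 -0.78 and -0.26. Klk1b11 differed by -1.01 and -0.99, the most even pair. Leaving out either KD normal array kept every difference below 0: without the second KD normal array Klk1 came to -0.71, and without the first to -0.42.

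In injured kidneys KD was again below WT for all 8. The log2 differences of KD IRI from WT IRI were -0.39 for Klk1 (SE 0.10, 1.31-fold lower), -0.30 for Klk1b3, -0.37 for Klk1b4 and -0.52 for Klk1b21 (SE 0.14 to 0.15). They were -0.98 for Klk1b11 (SE 0.15, 1.98-fold lower), -0.71 for Klk1b24 (SE 0.13), -0.81 for Klk1b27 (SE 0.15, 1.75-fold lower) and -0.69 for Klk1b26 (SE 0.30). No member's WT IRI and KD IRI arrays overlapped (31.3% of all genes had KD arrays wholly below), and 3 of the 8, Klk1b11, Klk1b24 and Klk1b27, lay among the genes called lower, against a background of 3.42%. That count was 0 without either WT normal array, the first WT IRI array or either KD IRI array, and from the arrays compared alone; it was 1 without the second WT IRI array and with no filter on dim probes. All 8 stayed lower on leaving out any 1 of the WT IRI and KD IRI arrays. The other settings named here cannot change these differences, only the calls. The median difference of the 8 was -0.61, and that of all genes -0.04.

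With injury the family divided. In WT kidneys the log2 difference of IRI from normal was -0.50 for Klk1 (SE 0.10, 1.42-fold lower), -0.45 for Klk1b3, -0.45 for Klk1b4 and -0.47 for Klk1b21 (SE 0.14 to 0.15). In the same arrays it was 2.65 for Klk1b11 (SE 0.15, 6.29-fold higher), 1.91 for Klk1b27 (SE 0.15, 3.77-fold higher), 0.73 for Klk1b24 (SE 0.13, 1.66-fold higher) and 0.61 for Klk1b26 (SE 0.30, 1.53-fold higher). Groups did not overlap for any of the 8. Arrays wholly lower or wholly higher with injury were found for 43.2% and 33.5% of all genes, so that a lack of overlap is common in this contrast. All 4 of the lower members lay among the genes called lower (background 25.2%), and 3 of the 4 higher members, all but Klk1b26, among those called higher (background 20.6%). Of the 4 lower members, 0 were called under quantile normalization or without the first WT normal array, and 1 under normexp or without the second WT normal or either WT IRI array. The number was 2 without either KD IRI array, with no filter on dim probes and without the intensity trend. The count of 3 called higher was not reduced in any of these.

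In KD kidneys the same genes stood on the same sides. The log2 difference of KD IRI from KD normal was -0.33 for Klk1, -0.23 for Klk1b3, -0.36 for Klk1b4 and -0.41 for Klk1b21. It was 2.67 for Klk1b11 (6.35-fold higher), 1.78 for Klk1b27 (3.44-fold higher), 1.15 for Klk1b26 and 0.95 for Klk1b24. Among the genes called lower were 2 members, Klk1 and Klk1b21 (background 31.8%), and among those called higher all 4 of the higher members (background 27.5%). The count of members called lower was 0 with no filter on dim probes, without the intensity trend and from the arrays compared alone. It was 1 in the deposited values, under quantile normalization and under normexp. The count of 4 called higher was the same in each of these. Both counts were smaller in some of the fits that left out an array, while every member kept its direction in all of those. Arrays did not overlap for 7 members, 3 lower and 4 higher, the exception being Klk1b3 (44.7% and 37.2% of all genes). These contrasts share arrays with the genotype contrasts and are not independent of them.

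The difference between the injury responses of the genotypes (KD minus WT) was close to or below its standard error for most members. It was 0.01 for Klk1b11 (SE 0.22), 0.05 for Klk1b21 (SE 0.20), 0.10 for Klk1b4 (SE 0.21) and -0.13 for Klk1b27 (SE 0.21). It was 0.17 for Klk1 (SE 0.15), 0.21 for Klk1b3 (SE 0.20) and 0.21 for Klk1b24 (SE 0.19). The largest was 0.53 for Klk1b26 (SE 0.42), the gene with a KD normal array not well above background. Intervals of this width would also cover sizeable differences in response, so the responses are not shown to be alike.

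**Figure D2:**
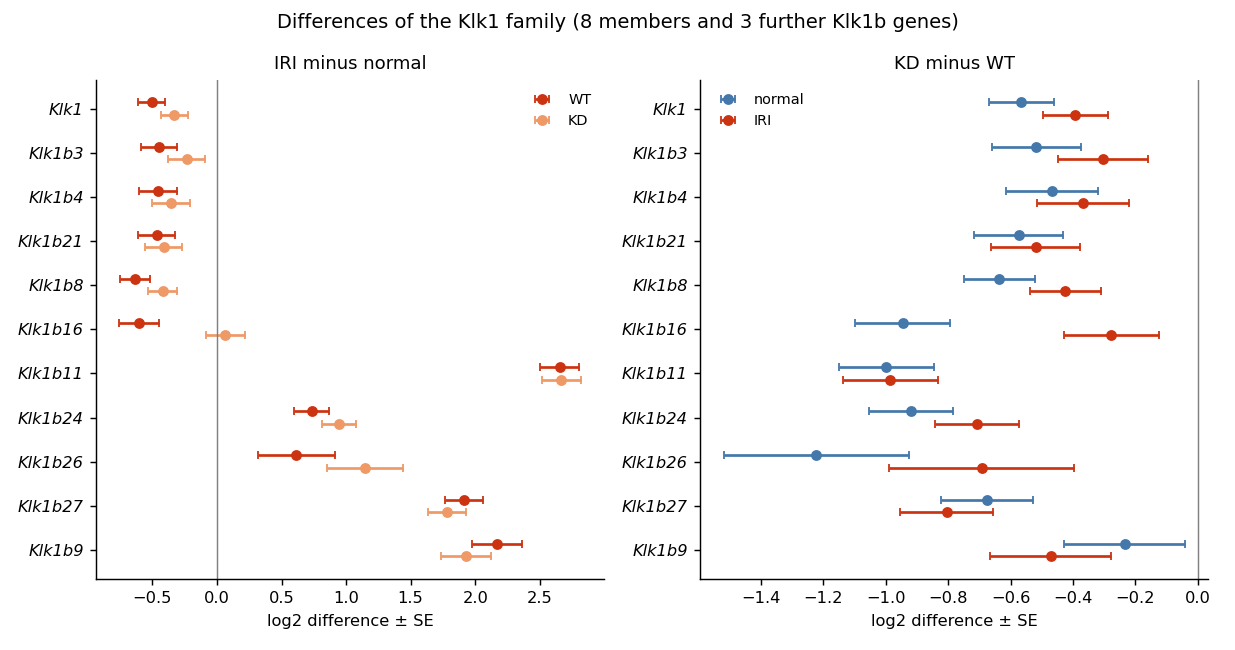
Log2 differences with standard errors (bars) for the 8 members and for Klk1b8, Klk1b16 and Klk1b9; the left panel gives IRI minus normal in WT and KD kidneys, the right panel KD minus WT in normal and injured kidneys. Genes divide to either side of 0 with injury, from -0.63 for Klk1b8 to 2.65 for Klk1b11 in WT kidneys, whereas every KD minus WT point lies below 0.

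How firmly the injury decline stands depended on how the arrays were put on a common scale. The 75th percentile itself was higher on every IRI array than on any normal array. Before division by it, Klk1 signals were 71721 and 88867 in KD normal and 73857 and 80481 in KD IRI kidneys. Klk1 differed by -0.50 between WT IRI and WT normal kidneys after division by the 75th percentile and by -0.49 in the deposited values, but by -0.06 after quantile normalization and by -0.13 after normexp background correction with quantile normalization. For Klk1b3 the value under normexp was -0.01, and for Klk1b4 -0.04. In KD kidneys the direction of Klk1 turned: the injury difference of -0.33 became 0.13 under quantile normalization and 0.11 under normexp, and Klk1b3 and Klk1b4 reached 0.25 and 0.06 under normexp. All 3 probes lie at the bright end of the arrays, with mean levels above 4.5 in every group. Klk1b21, at a middling brightness, moved less: its WT injury difference stayed between -0.52 and -0.41 under all 18 alternatives, though under quantile normalization it was not among the genes called. The KD-minus-WT differences and the injury increases of Klk1b11, Klk1b24, Klk1b26 and Klk1b27 kept their sign under every alternative that gave them a value. Several alternatives, such as dropping the intensity trend, cannot change a difference. In WT kidneys the increase of Klk1b11 ran from 1.88 under normexp to 2.74, that of Klk1b27 from 1.58 to 1.96, that of Klk1b24 from 0.65 to 0.81 and that of Klk1b26 from 0.27 to 0.72.

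**Figure D3:**
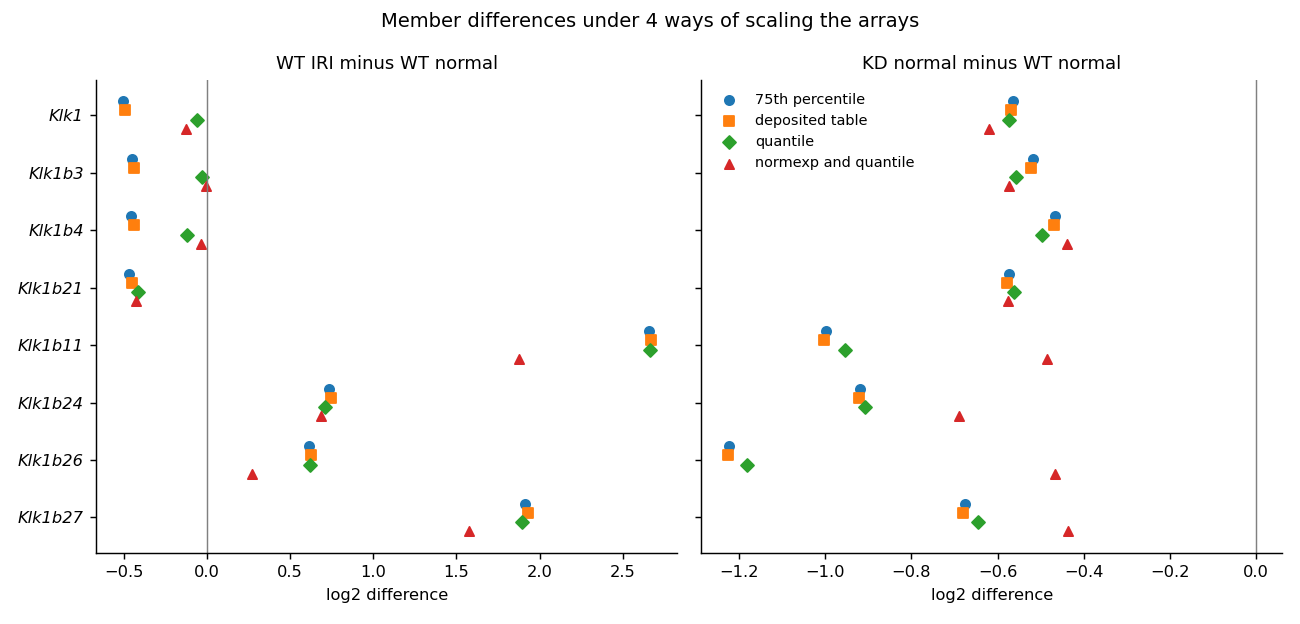
Log2 differences of the 8 members (rows) under 4 ways of scaling the arrays (symbols), for WT IRI minus WT normal on the left and KD normal minus WT normal on the right. Klk1 moves from -0.50 to -0.06 with injury under quantile normalization, and Klk1b3 and Klk1b4 also come close to 0, while Klk1b21 and all genotype differences stay on their side.

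A ratio between probes on the same array does not depend on a common scaling factor. It is taken from the same levels as the differences above, so it restates their split by injury and adds no further support. Over the 8 arrays, the ratio of Klk1b3 to Klk1 varied 1.18-fold from the lowest to the highest array, that of Klk1b4 1.16-fold and that of Klk1b21 1.14-fold. The ratio between the 2 Klk1b3 probes varied 1.16-fold, so on this scale these different genes tracked Klk1 about as closely as probes of a single gene tracked each other. By contrast the ratio to Klk1 varied 3.15-fold for Klk1b24, 4.63-fold for Klk1b26, 6.08-fold for Klk1b27 and 14.5-fold for Klk1b11. Under quantile normalization, for which no ratio was taken, the WT injury differences were less alike, at -0.06 for Klk1 and -0.41 for Klk1b21. The probes of the first group may report partly the same transcripts. The probe sequences were not used here and this was not tested.

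**Figure D4:**
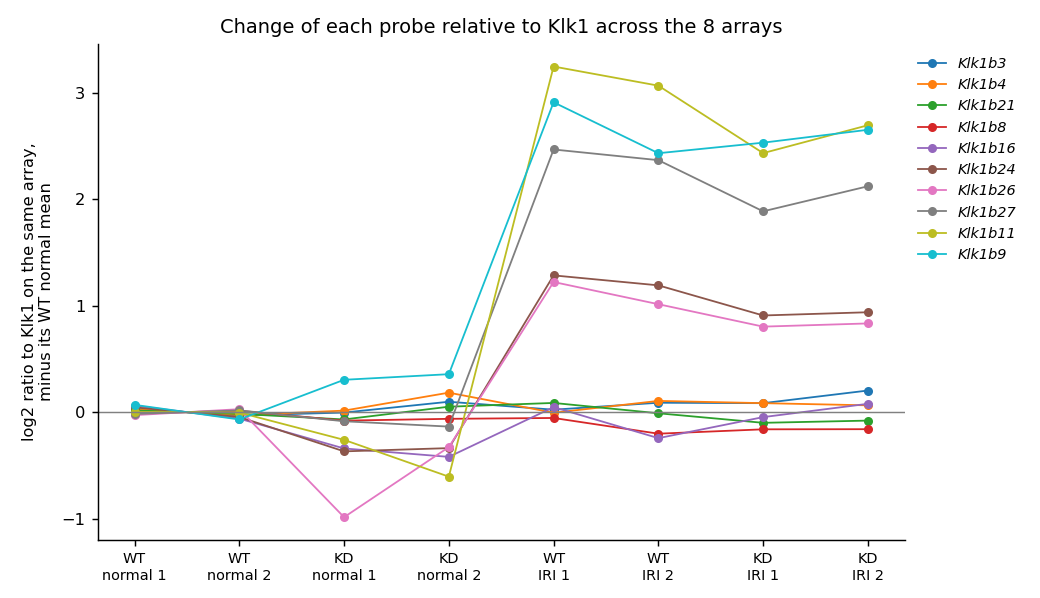
Log2 ratio of each gene's signal to that of Klk1 on the same array, minus the mean of that ratio in WT normal kidneys, for the 8 arrays (points; lines join the points of a gene). Klk1b3, Klk1b4, Klk1b21 and Klk1b8 stay near 0 on all arrays, while Klk1b24, Klk1b26, Klk1b27, Klk1b11 and Klk1b9 separate from Klk1 on the 4 IRI arrays.

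Of the 4 further Klk1b genes with a probe, 3 passed the filter. They are not members and were tested, but their list too was chosen with earlier results of these data known. With injury they lay on both sides of 0, as the members did. Klk1b8 had levels of 5.83 and 5.79 in WT normal and 5.24 and 5.10 in WT IRI kidneys and fell with injury by 0.63 on the log2 scale (SE 0.11, adjusted p = 0.00431), a call that was lost under quantile normalization and normexp. It fell by 0.64 with knockdown in normal kidneys (SE 0.11, adjusted p = 0.0166). The ratio of Klk1b8 to Klk1 varied only 1.16-fold over the arrays. Its probe may report partly the same transcripts as that of Klk1, which was not tested. Klk1b9, whose product binds EGF in the salivary gland, had levels of -1.05 and -1.26 in WT normal and 1.25 and 0.78 in WT IRI kidneys, a rise of 2.17 (SE 0.19, adjusted p = 0.000308), and rose by 1.93 in KD kidneys (SE 0.19, adjusted p = 0.000198). Both Klk1b9 calls held under all 18 alternatives. Its KD-minus-WT differences of -0.23 and -0.47 did not pass the test (adjusted p = 0.453 and 0.179).

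Klk1b16 had levels of -0.43 and -0.62 (WT normal), -1.58 and -1.37 in KD normal and -0.99 and -1.27 in WT IRI kidneys. It fell by 0.95 with knockdown in normal kidneys (SE 0.15, adjusted p = 0.0125). With injury in WT kidneys it fell by 0.60 (SE 0.15, adjusted p = 0.0168), a call lost without the first WT normal or the second WT IRI array. The knockdown calls of Klk1b8 and Klk1b16 were both lost without either WT normal array, with values from -0.79 to -0.48 and from -1.05 to -0.75 over the alternatives. In the reference table Klk1b9 and Klk1b16 are also immediate neighbours of members, as is Gm36864, for which no probe was found.

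The kallikrein-related peptidases outside the Klk1 branch showed little. Of 12 listed, 5 passed the filter. With injury, Klk10 fell by 0.59 in WT kidneys (SE 0.19, adjusted p = 0.0376), a call lost on leaving out any 1 of the 6 WT normal, WT IRI and KD IRI arrays. Klk8 rose by 0.65 in KD kidneys (SE 0.16, adjusted p = 0.0111), a call lost without the second KD IRI array. The largest knockdown differences were those of Klk9, at 0.40 in normal and -0.35 in injured kidneys (SE 0.52 for both), and did not pass the test (adjusted p = 0.642 and 0.709).

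Genes of the kinin system supply, sense or break down kinins. More of them were called with injury than with knockdown, and more fell than rose. Over all genes, too, calls were more frequent with injury, at 9432 in WT kidneys against 3124 with knockdown in normal kidneys. Of 17 listed genes of the kinin system 14 were tested. In WT kidneys 2 rose and 8 fell with injury, against 20.6% and 25.2% of all genes (median -0.71, all genes -0.08). In KD kidneys 2 rose and 9 fell, against 27.5% and 31.8% of all genes (median -0.62, all genes -0.08). Kng1, which encodes kininogen, the substrate of KLK1, had levels of 4.35 and 4.37 (WT normal), 3.76 and 3.68 (KD normal), 2.43 and 2.46 (WT IRI) and 2.22 and 2.05 (KD IRI). No groups overlapped. Kng1 fell by 1.92 with injury in WT kidneys (SE 0.08, adjusted p = 3.15e-05) and by 0.64 with knockdown in normal kidneys (SE 0.08, adjusted p = 0.00725). Its knockdown difference in injured kidneys was -0.31 (SE 0.08, adjusted p = 0.0639).

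Among the enzymes that degrade kinins, Ace, the angiotensin-converting enzyme that also cuts bradykinin, fell by 2.40 with injury in WT kidneys (SE 0.18, adjusted p = 0.000170). Xpnpep2, a membrane aminopeptidase that cleaves bradykinin, fell by 2.26 (SE 0.40, adjusted p = 0.00410). Cpn1, the catalytic subunit of the plasma kininase carboxypeptidase N, rose by 0.96 (SE 0.24, adjusted p = 0.0168), a call lost without either WT normal array or the first WT IRI array. Cpm, a membrane carboxypeptidase that trims kinins, did not pass the test with injury (-0.02, SE 0.12) but had levels of 2.19 and 2.17 in WT normal against 1.37 and 1.69 in KD normal kidneys. It fell by 0.65 with knockdown in normal (SE 0.12, adjusted p = 0.0160) and by 0.59 in injured kidneys (SE 0.12, adjusted p = 0.0317). Chosen after their values were seen, Mme, the peptidase neprilysin, fell by 1.38 with injury in WT kidneys (SE 0.09, adjusted p = 0.000117) and Bdkrb1, the inducible kinin receptor, by 1.52 (SE 0.24, adjusted p = 0.00232). Bdkrb2, the constitutive kinin receptor, was not well above background on any normal array and was measured on both arrays of each IRI group, at least 1.21-fold higher in KD IRI than in KD normal kidneys by the dimmest measurable signal (adjusted p = 0.00751).

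With knockdown in normal kidneys 3 of the 14 kinin genes fell, Kng1, Cpm and Ece1, against 8.79% of all genes. The other 11 did not pass the test (median of the 14 -0.47, all genes -0.03). In injured kidneys Cpm was the 1 gene of the 14 that fell, against 3.42% of all genes, and 13 did not pass (median -0.32, all genes -0.04). Neither WT normal array could be spared for these calls. Without the first, and likewise without the second, 0 of the 3 were called in normal kidneys, and the call of Cpm in injured kidneys was lost on leaving out any 1 of the 6 WT normal, WT IRI and KD IRI arrays.

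**Figure D5:**
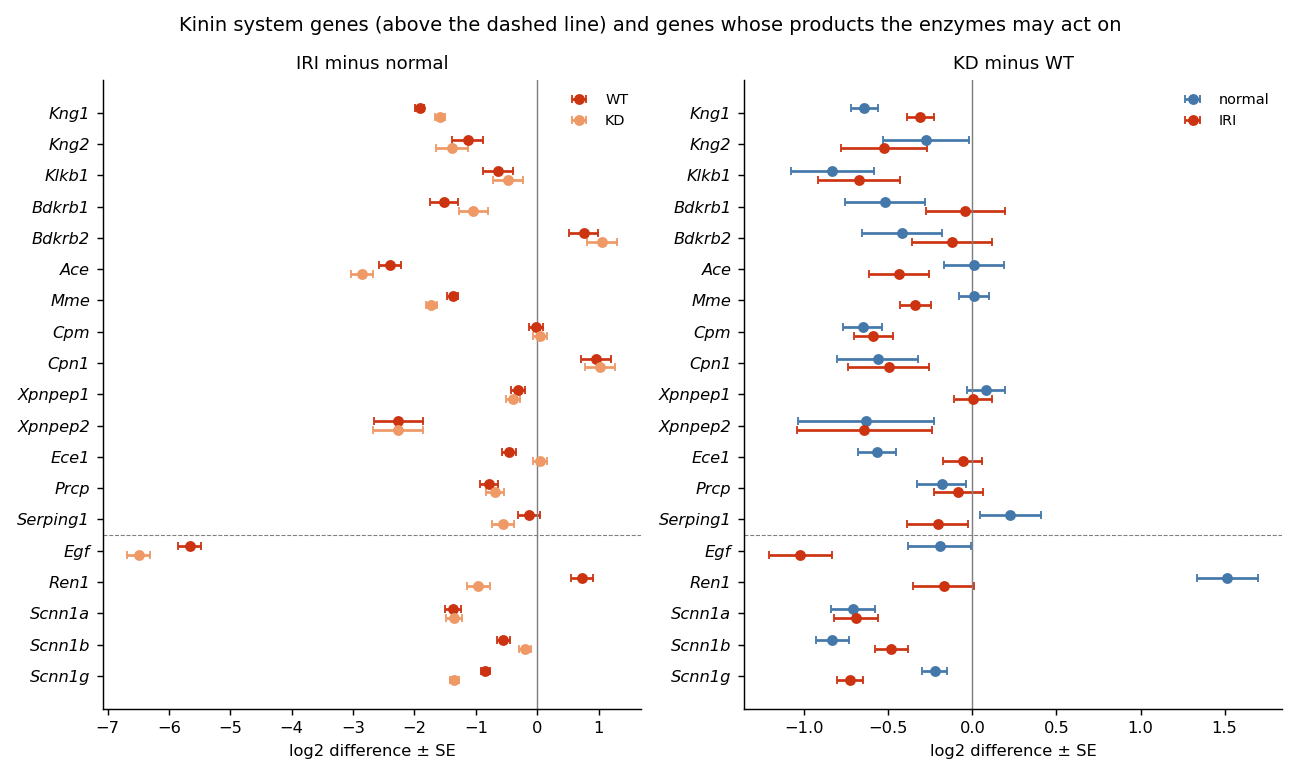
Log2 differences with standard errors (bars) for 14 genes of the kinin system and, below the dashed line, 5 genes whose products are known or proposed targets of kallikreins; the left panel gives IRI minus normal, the right panel KD minus WT. With injury the WT differences run from -5.66 for Egf to 0.96 for Cpn1, and with knockdown in normal kidneys from -0.83 for Scnn1b and Klkb1 to 1.52 for Ren1.

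Genes whose products kallikreins process or act on changed as well, in both directions. All 5 targets reported were called with injury in WT kidneys, 1 higher, Ren1, and 4 lower (20.6% and 25.2% of all genes). Egf, the growth factor precursor made by the distal nephron, fell from 5.92 and 5.95 in WT normal to 0.61 and -0.05 in WT IRI kidneys, a log2 difference of -5.66 (SE 0.19, adjusted p = 1.61e-05). Ren1, the protease renin, rose by 1.52 with knockdown in normal kidneys (SE 0.18, adjusted p = 0.00669), from 2.09 and 2.36 to 3.48 and 4.01; this call was lost without either WT normal array.

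The subunits of the epithelial sodium channel, which proteolysis activates, are listed among the targets. With injury in WT kidneys all 3 fell. Scnn1a had levels of 3.81 and 3.83 (WT normal), 2.94 and 3.27 (KD normal), 2.30 and 2.57 (WT IRI) and 1.72 and 1.77 (KD IRI). It fell by 0.71 with knockdown in normal (SE 0.13, adjusted p = 0.0181) and by 0.69 in injured kidneys (SE 0.13, adjusted p = 0.0290). These are values of the brighter of 2 probes; the other gave -0.66 in normal but 0.20 in injured kidneys, and neither was called, so that the direction in injured kidneys rests on 1 probe. Scnn1b fell by 0.83 and by 0.48 in the same comparisons (SE 0.10 for both, adjusted p = 0.00658 and 0.0365). Scnn1g differed by -0.23 in normal kidneys (SE 0.08, adjusted p = 0.0890) and fell by 0.73 in injured kidneys (SE 0.08, adjusted p = 0.00849). Without either WT normal array the calls of Scnn1a and Scnn1b in normal kidneys were lost, with values from -0.87 to -0.55 and from -0.93 to -0.74. In injured kidneys the calls of Scnn1a and Scnn1b were lost without either WT normal or either KD IRI array, and that of Scnn1g without the second KD IRI array.

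Markers of the segment in which kallikreins are mainly made also changed, and the kallikrein differences are to be read beside them. Of 7 tested markers of the distal convoluted and connecting tubule, 5 fell with knockdown in normal kidneys, against 8.79% of all genes. The other 2 did not pass the test (median of the 7 -0.79, all genes -0.03). With injury in WT kidneys 6 fell, against 25.2% of all genes, and 1 marker did not pass (median -1.83, all genes -0.08). Their summed level, in multiples of the 75th percentile, was 155 to 159 in WT normal, 89.6 to 92.7 in KD normal, 31.9 to 41.7 in WT IRI and 36.4 to 36.7 in KD IRI kidneys. All 7 were well above background in normal kidneys and 6 in injured ones. Slc8a1, the sodium-calcium exchanger of the connecting tubule, had levels of 0.95 and 1.06 in WT normal and -0.36 and -0.28 in KD normal kidneys, a fall of 1.32 (SE 0.13, adjusted p = 0.00454). Calb1, the calcium-binding calbindin of the same segment, fell by 4.07 with injury in WT kidneys (SE 0.11, adjusted p = 9.49e-06) and by 0.79 with knockdown in normal kidneys (SE 0.11, adjusted p = 0.00948). Of the 5 knockdown calls, 1 was left without the first WT normal array and 0 without the second.

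Between KD IRI and WT IRI kidneys, where all 8 kallikreins were lower in KD, the summed distal level overlapped, the median difference of the 7 markers was -0.36 (all genes -0.04), and 2 of them fell, Trpv5 by 1.29 (SE 0.23, adjusted p = 0.0259) and Slc8a1 by 0.58 (SE 0.13, adjusted p = 0.0493). Both calls were lost without either WT normal or either KD IRI array, and that of Slc8a1 also without either KD normal or the first WT IRI array. With injury in WT kidneys the distal markers fell much more than Klk1, and Klk1b11, Klk1b24, Klk1b26 and Klk1b27 stood higher. The part of segment loss in the kallikrein values was not tested.

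Intercalated cells, the acid-base cells of the same region, had lower markers with knockdown too. In normal kidneys 3 of 5 fell, against 8.79% of all genes (median -0.59). Among them Slc4a1, the chloride-bicarbonate exchanger, fell by 1.44 (SE 0.34, adjusted p = 0.0356) and Slc26a4, pendrin, by 0.74 (SE 0.13, adjusted p = 0.0143). All 3 calls were lost without either WT normal array and without the first KD normal array. Of 6 principal cell markers 1 fell with knockdown in normal kidneys, Fxyd4 by 0.30 (SE 0.07, adjusted p = 0.0383), a call lost on leaving out any WT normal, KD normal or KD IRI array. The median of the 6 was -0.14, and their summed level was 108 to 113 in WT normal and 113 to 120.1 in KD normal kidneys. For the 6 proximal tubule markers the median in that comparison was 0.11, the largest difference, 0.35 for the organic anion transporter gene Slc22a6 (SE 0.31), did not pass the test (adjusted p = 0.488), and the summed level was 484 to 496 in WT normal and 526 to 558 in KD normal kidneys.

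Several Klk1b genes are also expressed in exocrine pancreas and salivary gland, and pancreas lies beside the left kidney. Of 11 listed pancreas genes, all with a probe, Cela2a, Cela3b, Pnlip, Cpb1, Prss2 and Clps were well above background on 0 of 8 arrays. Of the others, Cel was above background on 8 arrays, Cela1 on 5, Amy2a5 on 4 and Cpa1 on 1. The chymotrypsinogen gene Ctrb1 was above background on the 7 arrays with a value, at signals of 298 to 406. It has no value on the second WT normal array, so it was neither tested nor summed. The summed level of the 10 genes with a value on every array was 0.237 to 0.257 in WT normal, 0.177 to 0.226 in KD normal, 0.360 to 0.385 in WT IRI and 0.404 to 0.505 in KD IRI kidneys. Within this sum, Cela1 signals were 25.2 to 40.4 on normal arrays and 287.1 to 448.5 on IRI arrays. Those of Amy2a5 went the other way, from 35.5 to 67.6 on normal arrays and from 17.5 to 29.3 on IRI arrays. The part of pancreas RNA in the kallikrein values was not tested. Cela1 was at least 7.72-fold higher in WT IRI than in WT normal kidneys (adjusted p = 0.000153), and was the 1 gene of the 3 tested that rose in that comparison. The salivary genes Bpifa2 and Smgc were well above background on 0 of 8 arrays, and Prol1 on 3. Amy1, which kidney also expresses, was above background on all 8. It fell by 1.24 with injury in WT kidneys (SE 0.12, adjusted p = 0.000399) and by 0.77 with knockdown in normal kidneys (SE 0.12, adjusted p = 0.0115), the latter a call lost without either WT normal array.

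Androgens and corticosteroids control several Klk1b genes in salivary gland, and genes of both axes were therefore read in the same arrays. Of 7 tested androgen-dependent kidney genes, 2 rose with knockdown in normal kidneys, where the kallikreins were lower, and 5 did not pass the test (median 0.68, all genes -0.03). Those 2 were Cyp4a12a, a fatty acid hydroxylase, by 2.01 (SE 0.28, adjusted p = 0.00878) and Gusb, beta-glucuronidase, by 0.89 (SE 0.20, adjusted p = 0.0324). With injury in WT kidneys 6 of the 7 fell, against 25.2% of all genes, the most by 3.79 for Acsm3 (SE 0.26, adjusted p = 0.000137). Of 8 genes of the mineralocorticoid and glucocorticoid axis, 2 rose and 1 fell with knockdown in normal kidneys. Fkbp5 rose by 2.38 (SE 0.54, adjusted p = 0.0314) and Tsc22d3 by 1.91 (SE 0.51, adjusted p = 0.0479), both textbook glucocorticoid-induced genes. Hsd11b2, which inactivates glucocorticoid in the aldosterone-sensitive nephron, fell by 1.05 (SE 0.18, adjusted p = 0.0143). All 5 of these knockdown calls were lost without the first or without the second WT normal array.

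The genes with a symbol outside the member list whose profile over the 8 arrays was nearest to that of Klk1 were sought among 14098 genes. The measure was the root mean square difference of centred log2 levels. Klk1b8 was nearest (0.0718), followed by AA986860 (0.0793), Uvssa (0.0837), Atp6v1g3 (0.0911), an intercalated cell proton pump subunit, and Zyg11b (0.0934). For the mean profile of the 8 members the nearest were Tesc (0.125), Ubxn11 (0.142), Cyp2s1 (0.148), Ifi27 (0.150) and Sgip1 (0.152). With 8 arrays in 4 groups, such nearness reflects few independent values, and the mean profile blends genes that moved in opposite directions with injury.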

How the data were processed

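The values are processed signals of 8 one-colour Agilent arrays, intensity values that the authors deposited as scanner output of Feature Extraction 10.7.3.1, background-subtracted per the file headers. They were divided by each array's 75th percentile and taken as log2. Spots marked as outliers were left out. A probe entered if some group had it well above background on both of its arrays and all 8 arrays measured it (27408 of 41174); the brightest probe stood for a gene. The test was limma 3.58.1, under R 4.3.3, on the 4 group means (intensity trend, 4 residual degrees of freedom, Benjamini-Hochberg over 20580 genes, threshold 0.05, two-sided). With 2 arrays a group, their number limits the precision. Data were simulated for KD normal against WT normal over 20580 genes, 200 of them changed, with noise independent between arrays. There 53% of genes changed by a log2 of 1 and 91% of those changed by 2 were called, with 4.64% false among the calls. These rates need not hold for the real arrays, where 3124 genes were called in that contrast. The log2 table the authors deposited matched the scanner values after centring each probe (r = 0.99995 or higher on 8 of 8 arrays). How it was scaled before that is unstated, and its column medians ran from -0.14 to 0.16. Members and gene lists were chosen with earlier results of these data known. From each list, for each contrast, up to 2 genes with the largest rise and fall past the threshold and the largest change not past it were picked. The text gives only part of these. It leaves out the lists of female-biased, blood, adrenal and fat, and neutrophil genes, and many picks for KD IRI against KD normal. Upstream sequences came from a RefSeq table (GRCm38.p6), whose build is not that of the arrays (mm9). A result for 1 listed gene is not reported here.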

Additional observations from a re-analysis of the deposited data

Results flagged for a closer look

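The injury response differed between genotypes for 5 named genes, by limma's test of the difference itself (KD minus WT response, Benjamini-Hochberg adjusted). It was -1.97 for Cyp2e1 (SE 0.40, adjusted p = 0.0396), -3.20 for Cyp4a12a (SE 0.39, adjusted p = 0.0170), -1.69 for Ren1 (SE 0.26, adjusted p = 0.0221), 0.90 for S100g (SE 0.20, adjusted p = 0.0469) and -0.50 for Scnn1g (SE 0.11, adjusted p = 0.0434). Ren1 was highest in KD normal kidneys and rose with injury in WT but fell in KD kidneys, by 0.96. All 5 calls were lost without the first WT normal array, and likewise without the second WT normal or the second KD IRI array.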

How the results depend on the processing

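Of 707 member values under alternatives, 633 moved by less than the spread between arrays, 72 moved further, some across 0, and 2 more turned the sign of a called difference: Klk1 in KD IRI against KD normal kidneys, -0.33, was 0.13 under quantile normalization and 0.11 under normexp. Klk1b3 (-0.23) and Klk1b4 (-0.36), not called there, also turned, to 0.23 and 0.03 under quantile normalization and 0.25 and 0.06 under normexp. Many of the 633 values could not have moved. A member's difference is unchanged by dropping the dim-probe filter, the intensity trend or an array outside the contrast, or by adding the block. The replicate block and the slide block are the same fit and were both counted. Of 4702 values of other genes, 4340 kept their side of the threshold, 284 lost the call and 76 gained it. Values called in neither fit were counted as kept whatever their sign. A further 2 turned sign where a fit was called: Fxyd4 with injury in WT kidneys (0.000702 under quantile normalization) and Uvssa in KD kidneys (0.0361 with the mean of all probes). The cause was not tested. Genes called numbered 9432 for WT IRI against WT normal (15129 with no filter on dim probes, 5898 to 9695 leaving out each array), 3124 for KD normal against WT normal (2001 with no filter, 119 to 3858), 1463 for KD IRI against WT IRI (930 without the intensity trend, 66 from the arrays compared alone, 24 to 1539), 12202 for KD IRI against KD normal (9247 to 12557) and 1359 for the difference of responses (550 with no filter, 739 without the trend, 6 to 1694). With no filter, 28.9% of the WT and 34.5% of the KD injury calls were higher, against 45.0% and 46.4%. Of the named genes, 27 of 41 calls for WT IRI against WT normal were kept in every fit that left out an array, 2 of 27 for KD normal against WT normal, 2 of 11 for KD IRI against WT IRI and 35 of 42 for KD IRI against KD normal. Where an array is left out, the lone array is assumed to vary like the other groups. Replicate number and slide coincide. Same-numbered arrays correlated at 0.0216 to 0.262 in their deviations over all genes, not enough to pair them, and the fit with the replicate block called 10129, 3727, 1796, 12884 and 1611 genes in the same order.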
